A study of Mus musculus with 12 samples.

Results

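The pentose phosphate pathway enzymes were followed as 8 transcripts, taken by gene symbol from a table of 46095 genes. They form an oxidative arm of 4 (G6pdx, Pgls, Pgd and H6pd) and a non-oxidative arm of 4 (Rpe, Rpia, Tkt and Taldo1). All 8 were found and all 8 passed the filter on low counts. RNA was sequenced from liver tumours (hepatocellular carcinoma) that the carcinogen diethylnitrosamine (DEN) had induced in mice: 7 libraries came from Pck1-null animals (KO) and 5 from wild-type animals (WT). The design compares the genotypes to ask what Pck1, which encodes the gluconeogenic enzyme phosphoenolpyruvate carboxykinase, does in such tumours. The labels used here give no allele, driver, strain, sex, age, dose or time after DEN, no normal liver was compared, and it is not stated whether each library is a different mouse, so the p-values reflect the spread among these libraries alone.

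The oxidative arm turns glucose 6-phosphate into ribulose 5-phosphate and yields NADPH, the reducing power for fatty acid synthesis, glutathione recycling and cytochrome P450 enzymes. The non-oxidative arm is reversible and exchanges sugar phosphates between glycolysis and ribose 5-phosphate, the sugar of nucleotides. In liver the cytosolic oxidative enzymes are known to follow carbohydrate feeding and lipogenesis, and several genes of both arms are known targets of NRF2, the transcription factor of the oxidative stress response.

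Total counts were 17462102 to 23663506 in 7 shallower libraries (4 KO, 3 WT) and 43071365 to 46747125 in 5 deeper ones (3 KO, 2 WT). Levels are given as CPM, the reads of a gene per 1000000 reads of the TMM-scaled library. Pck1 itself, the labelled target, was at 111 to 1167 CPM in KO and 1063 to 5822 in WT, and the groups overlapped because KO replicate 3 (1167 CPM) lay above WT replicate 4 (1063 CPM). KO and WT below mean libraries labelled as such. Since the allele is not given, whether these reads lie outside a deleted stretch was not tested. The 8 hepatocyte markers examined were detected in all 12 libraries and summed to 50630 to 136322 CPM in KO and 52118 to 180607 CPM in WT. The 12 neutrophil markers summed to 1750 CPM in KO replicate 3, 447 in KO replicate 6 and 277 in KO replicate 4, against 41.2 to 60.04 in the other KO libraries and 41.2 to 93.1 in WT. In bulk tumour RNA, fewer cells of a type and less RNA per cell cannot be told apart.

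Short stretches next to the start sites of 3 members show which promoter letters are referred to beside the values. They come from RefSeq on GRCm38.p6 and run 5′ to 3′ on the gene's strand. The G6pdx and Tkt stretches lie inside the gene bounds given below, which come from the GENCODE M21 annotation and differ in their starts. Capitals mark an antioxidant response element core (TGACNNNGC, the letters bound by NRF2, here on the other strand) for G6pdx at chrX:74428917-74428946 (minus strand), 3 GC boxes (GGGCGG on the other strand, bound by Sp1) for Tkt at chr14:30549105-30549134 (plus strand), and 1 CCAAT box on the other strand for Taldo1 at chr7:141392130-141392159 (plus strand).
G6pdx: ggcgggtcaGCTCAGTCAaagcacacgccc
Tkt: cCCGCCCcacctCCGCCCCGCCCcccatgg
Taldo1: gcttcatttagctttgctttgATTGGccag

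The Taldo1 stretch ends at the base before the start site. Windows of 300 bases, from 250 before to 50 after a start, were searched on both strands. All 8 members matched, with 9 windows because Pgd has 2 starts. The antioxidant response element core was in 2 of the 9 windows (G6pdx and the second Pgd start) and in 12.39% of all 32851 windows. The GC box was in 7 of 9 against 35.66%, and CCAAT in 4 of 9 (H6pd, Pgd, Rpe and Taldo1) against 37.41%. The E-box CACGTG (7.15% of windows) and the AP-1 letters TGANTCA (7.81%) were in none of the 9. The antioxidant core and the AP-1 letters can overlap. These are matches of letters and not measured binding.

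None of the 8 transcripts passed the test between genotypes at an adjusted p of 0.05 (edgeR's quasi-likelihood test, Benjamini-Hochberg over 14666 genes), and 0 of the 14666 genes tested did (0%). At an unadjusted p under 0.05 there were 2155 such genes (14.7%), 1064 of them higher in KO (7.25%) and 1091 lower (7.44%). Of the 8 members, 0 were among the higher and 2, Rpia and Taldo1, among the lower genes. The fitted difference was negative for 7 of 8 members against 46.3% of all genes. The median log2 fold change, KO minus WT, was −0.20 over the 8 members, −0.088 over the oxidative arm, −0.32 over the non-oxidative arm and 0.034 over all genes. In none of the 8 did the KO libraries all lie beyond the WT libraries, which held for 1.21% of genes. DESeq2 called 489 genes and no member.

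**Figure D1:**
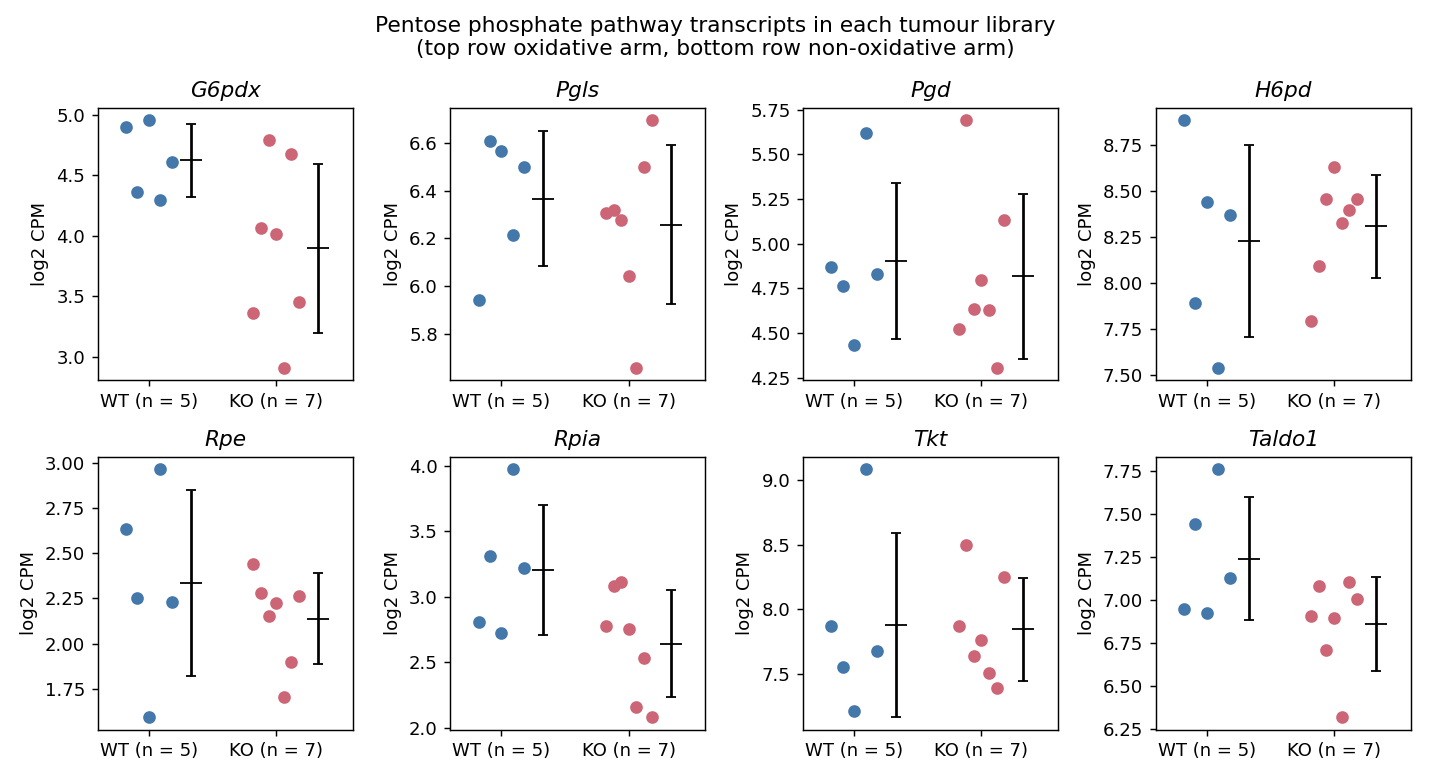
Level of each enzyme transcript in log2 CPM (y axis) in the WT (n = 5) and KO (n = 7) libraries, 1 point per library with the group mean. The groups overlap in every panel, and G6pdx has 5 of 7 KO libraries under all WT libraries.

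G6pdx encodes glucose 6-phosphate dehydrogenase, the rate-limiting first enzyme of the cytosolic oxidative arm, and lies on the X chromosome (GRCm38, X:74409483-74429194, minus strand). In WT it was at 29.8, 20.5, 31.0, 19.6 and 24.3 CPM in replicates 1 to 5, and in KO it ran from 7.45 (replicate 5) over a median of 16.1 to 27.6 CPM (replicate 3). 5 of the 7 KO libraries lay below all WT libraries, and KO replicates 3 (27.6) and 6 (25.5) lay within the WT range. The fitted log2 fold change was −0.61 ± 0.30 (SE, 95% interval −1.27 to 0.045), with an adjusted p of 0.372 in edgeR. Within depth classes the means of log2 CPM differed by −0.80 (shallower) and −0.62 (deeper).

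The 2 KO libraries with G6pdx in the WT range were the 2 with the most neutrophil transcripts. KO replicate 4, the next highest in these markers (277 CPM), was at 16.1 CPM of G6pdx, below all WT libraries and close to KO replicate 2 (16.7 CPM, marker sum 60.04). As background, neutrophils are known to use this enzyme for the NADPH of their oxidative burst. All 12 neutrophil markers were detected in every library. At an unadjusted p under 0.05 in edgeR, 9 of the 12 were higher in KO, against 7.25% of all genes. Outside KO replicates 3, 4 and 6, the marker sums of KO libraries reached 60.04 CPM, against up to 93.1 in WT. KO replicate 6 also had the highest macrophage marker sum (3699 CPM, against 594 to 1154 in the other KO libraries and 1065 to 2004 in WT), and KO replicate 3 the highest erythroid sum (1553 CPM). Without KO replicates 3, 4 and 6, an alternative chosen after seeing the data, the 4 remaining KO libraries were at 7.45 to 16.7 CPM and all lay below WT. That was fixed by the choice, because the libraries left out include both KO libraries in the WT range. It is therefore no test of the part of neutrophils. The fold change without these libraries was −1.17 ± 0.25 on the log2 scale (SE, edgeR adjusted p = 0.129). The adjusted p over all alternatives ran from 0.0863 to 0.536. Ctsg, a granule protease of neutrophils and monocytes, was among the genes most like G6pdx across libraries. It was at 23.2 CPM in KO replicate 3, 4.83 in KO replicate 6 and 3.23 in KO replicate 4. The other KO libraries were at 0.155 to 1.24 CPM, and WT libraries held 1 to 11 reads of it. The share of other cells in the G6pdx values was not tested. Because G6pdx is X-linked, the fit was repeated with Xist class (above or under 10 CPM) as a covariate, and gave −0.67 with an adjusted p of 0.533. Above 10 CPM were KO replicates 1, 2, 3, 5 and 6 and WT replicate 4, so this class was uneven between the genotypes. With the same covariate Rpia was at −0.83 (edgeR adjusted p = 0.266) and H6pd at 0.32 (edgeR adjusted p = 0.630), and no member passed.

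**Figure D2:**
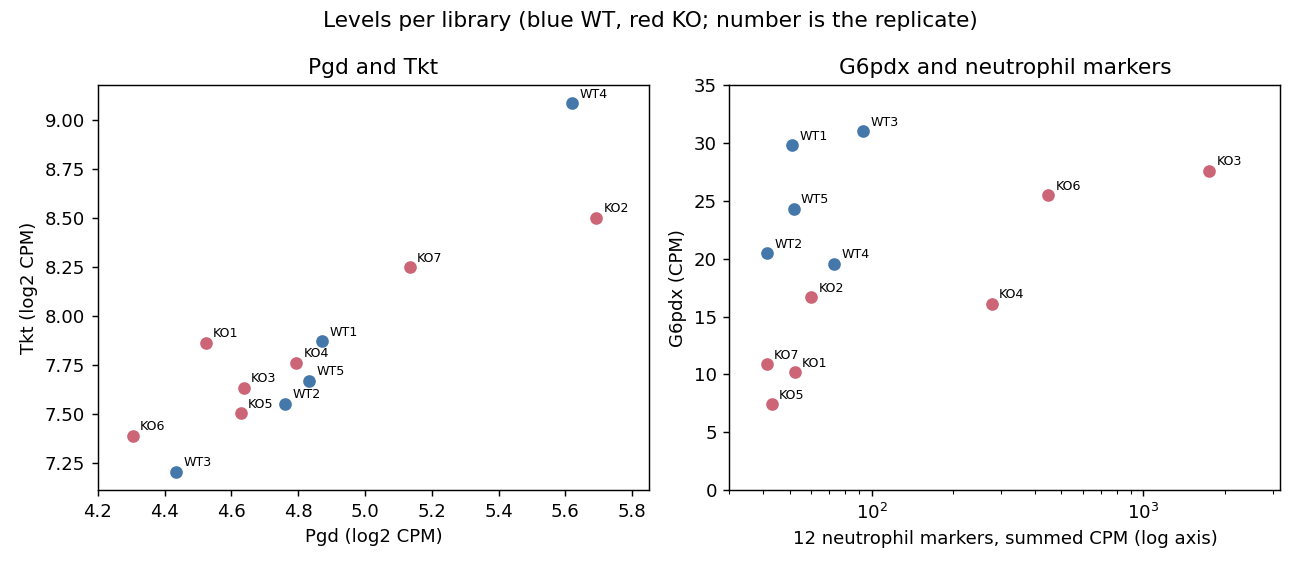
Left, Tkt against Pgd in log2 CPM. Right, G6pdx in CPM against the summed CPM of 12 neutrophil markers on a log axis. Each point is 1 library with its replicate number, WT in blue and KO in red. KO replicates 3 and 6 have the highest marker sums and the highest G6pdx of the KO libraries, and Pgd and Tkt lie along 1 rising line with WT replicate 4 and KO replicate 2 at its top.

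H6pd encodes the glucose 6-phosphate dehydrogenase of the endoplasmic reticulum, which also carries the lactonase step and feeds NADPH to 11β-hydroxysteroid dehydrogenase inside that compartment (GRCm38, 4:149979475-150009023, minus strand). In WT it was at 473, 237, 348, 186 and 331 CPM in replicates 1 to 5. KO ran from 222 over a median of 337 to 397 CPM. The lowest and the highest library were both WT, and every KO library lay between them. KO minus WT was 0.031 ± 0.23 on the log2 scale (SE, 95% interval −0.46 to 0.53, adjusted p = 0.961 in edgeR). Per length, H6pd was above G6pdx in every library, by 5.59 to 9.33 times in WT (median 6.82) and 7.47 to 25.3 times in KO (median 12.8). Without correction for length, G6pdx was 5.93% to 9.52% of the summed G6pdx and H6pd CPM in WT and 2.27% to 7.30% in KO. Of the 7 KO shares, 5 were under the lowest WT share.

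Pgls encodes 6-phosphogluconolactonase, which opens the ring of the G6pdx product (GRCm38, 8:71592176-71601092, plus strand). It was at 61.3, 97.6, 94.7, 74.2 and 90.3 CPM in WT replicates 1 to 5 and from 50.4 over a median of 79.1 to 104 CPM in KO. KO replicate 5 was lowest and KO replicate 7 highest, so the KO range enclosed the WT range. The log2 fold change was −0.10 ± 0.18 (SE, 95% interval −0.49 to 0.29, adjusted p = 0.818 in edgeR), and the means of log2 CPM differed by 0.16 among shallower and −0.49 among deeper libraries.

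Pgd encodes 6-phosphogluconate dehydrogenase, which makes the second NADPH and ribulose 5-phosphate (GRCm38, 4:149149991-149166771, minus strand). Its WT values in replicates 1 to 5 were 29.2, 27.0, 21.6, 49.1 and 28.4 CPM, and KO ran from 19.7 over a median of 24.8 to 51.6 CPM. WT replicate 4 and KO replicate 2 stood above the others, and the groups overlapped throughout. In the fit KO differed from WT by a log2 fold change of −0.076 ± 0.26 (SE, 95% interval −0.63 to 0.48, adjusted p = 0.911 in edgeR). No shared variation was detected for G6pdx and Pgd, which are separated by the Pgls step. Their Pearson r across 12 libraries, after each genotype mean was removed, was −0.222 (permutation p = 0.545, adjusted p = 0.723 over 28 pairs).

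Rpia encodes ribose 5-phosphate isomerase, which makes ribose 5-phosphate (GRCm38, 6:70765720-70792232, minus strand). It was at 6.93, 9.86, 6.53, 15.6 and 9.25 CPM in WT replicates 1 to 5, and from 4.16 over a median of 6.70 to 8.57 CPM in KO. WT replicate 4 was highest, all 7 KO libraries lay under the WT mean and 3 lay under every WT library. The log2 fold change was −0.60 ± 0.26 (SE, 95% interval −1.16 to −0.033), with an adjusted p of 0.318 in edgeR. Means of log2 CPM differed by −0.41 (shallower) and −0.78 (deeper). Its unadjusted p was no longer under 0.05 in 10 of 22 alternatives: without any 1 of 8 of the 12 libraries, without the 3 neutrophil-rich libraries, and with title number range as a covariate (−0.50, edgeR adjusted p = 0.392). The value moved most without WT replicate 4, to −0.35 (edgeR adjusted p = 0.515). The limma-voom fit with sample weights gave −0.61 with an adjusted p of 0.0486, the only call of a member in the fits run, and the adjusted p ran up to 0.519 over the alternatives. That fit called 2138 genes.

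Rpe encodes ribulose 5-phosphate 3-epimerase, which makes xylulose 5-phosphate (GRCm38, 1:66700831-66719805, plus strand). Its values in WT replicates 1 to 5 were 6.13, 4.70, 2.95, 7.73 and 4.63 CPM, and KO ran from 3.19 over a median of 4.61 to 5.36 CPM. The WT libraries held both extremes. The fitted log2 fold change was −0.25 ± 0.24 (SE, 95% interval −0.77 to 0.27, adjusted p = 0.630 in edgeR). It rested on 42 to 258 reads per library, the fewest of the 8 members.

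Tkt encodes transketolase, which moves carbon units of ketose sugars (GRCm38, 14:30548359-30574720, plus strand). In WT replicates 1 to 5 it was at 234, 188, 148, 543 and 204 CPM, and KO ran from 168 over a median of 217 to 362 CPM. WT replicate 4 stood above all other libraries and WT replicate 3 below all of them, and WT replicates 1, 2 and 5 lay among the KO libraries. Its log2 fold change was −0.15 ± 0.32 (SE, 95% interval −0.84 to 0.54, adjusted p = 0.853 in edgeR). Without WT replicate 4 its sign turned, to 0.30 (edgeR adjusted p = 0.565).

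Taldo1 encodes transaldolase, the partner of transketolase in the carbon exchange (GRCm38, 7:141392199-141402968, plus strand). It was at 123, 174, 121, 216 and 140 CPM in WT replicates 1 to 5, and from 79.7 over a median of 120 to 137 CPM in KO. All 7 KO libraries lay under the WT mean and 4 lay under every WT library. Its log2 fold change was −0.40 ± 0.18 (SE, 95% interval −0.79 to −0.0023), with an adjusted p of 0.338 in edgeR. Means of log2 CPM differed by −0.28 (shallower) and −0.51 (deeper). Its unadjusted p was no longer under 0.05 in 14 of 22 alternatives, among them 8 of the 12 that left out 1 library, depth class and title number range as covariates, no filter and both limma-voom fits. The value moved most without WT replicate 4, to −0.25 (edgeR adjusted p = 0.519).

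**Figure D3:**
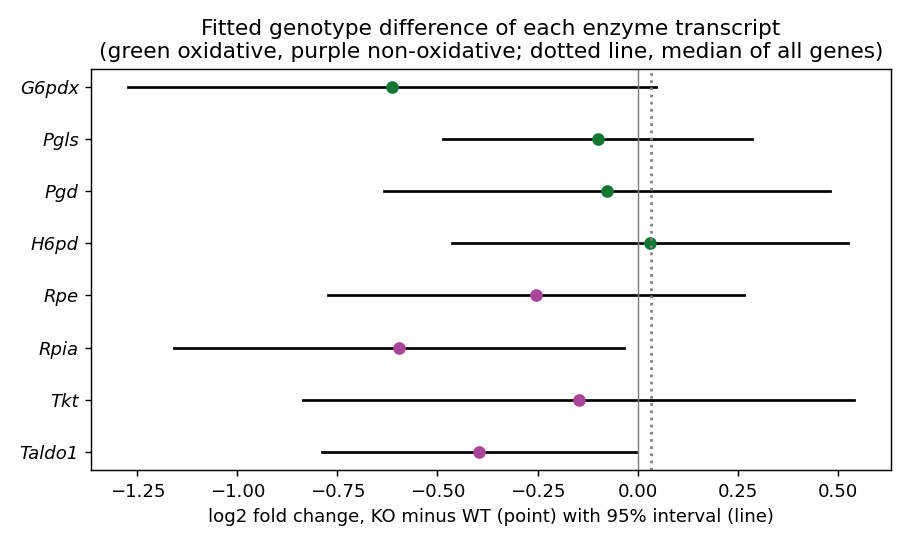
Fitted log2 fold change of each enzyme transcript, KO minus WT (x axis; point) with its 95% interval (line), oxidative arm in green and non-oxidative arm in purple. The dotted line is the median of all genes tested, 0.034. The intervals of Rpia and Taldo1 end just below 0, and those of the other 6 members include 0.

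WT replicate 4 held the highest values of the non-oxidative arm. It was highest of all 12 in Tkt, Taldo1, Rpia and Rpe and highest of the WT libraries in Pgd, while its H6pd was the lowest of all and its G6pdx the lowest of WT. The same library had the highest Hk2 (a hexokinase common in tumours, 96.0 CPM), Pklr (liver pyruvate kinase, 524 CPM) and Thrsp (a lipogenic regulator, 460 CPM). Hk2 and Pklr were chosen after their values were seen. Its Pck1 was the lowest of WT. Dixon's outlier test, run on each member and on the balance of the arms within each genotype, flagged 0 of 18 groups.

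Each arm was summarised per library as the mean log2 CPM of its 4 members, with no test. The oxidative arm was at 5.82 ± 0.27 (SD, n = 7) in KO and 6.03 ± 0.11 (SD, n = 5) in WT. The non-oxidative arm was at 4.87 ± 0.25 in KO and 5.16 ± 0.48 in WT, with WT replicate 4 highest at 5.94. The oxidative minus non-oxidative balance was 0.95 ± 0.24 in KO (0.50 to 1.24) and 0.87 ± 0.56 in WT (−0.027 in replicate 4 to 1.49 in replicate 3). The WT range enclosed the whole KO range, and the difference of 0.082 was smaller than either SD. Without WT replicate 4 it was −0.14, and without H6pd −0.015.

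**Figure D4:**
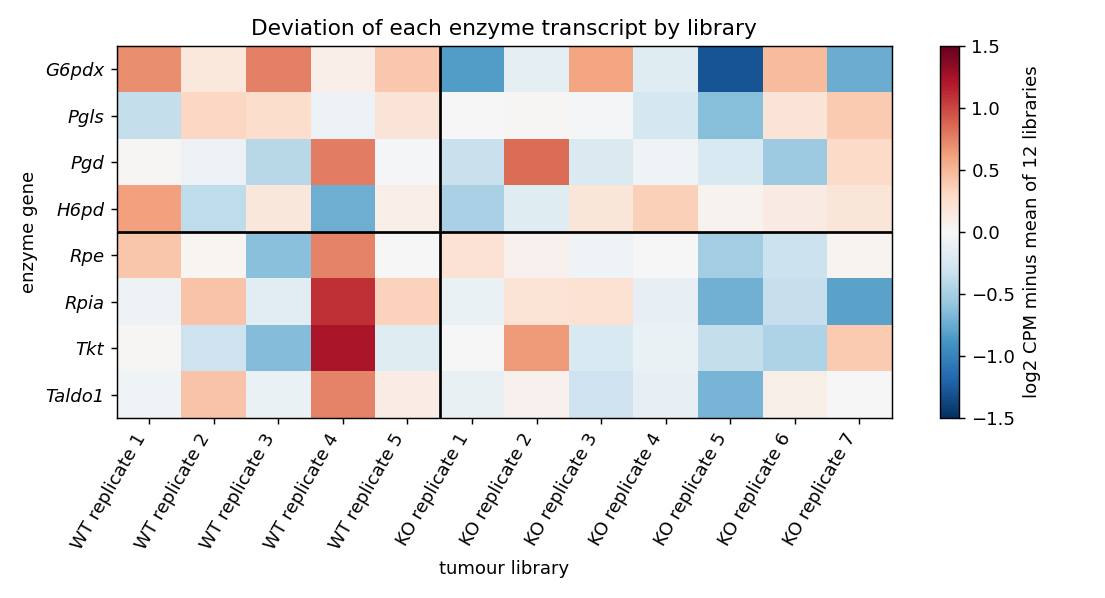
Deviation of each enzyme transcript (rows; oxidative arm above the line) from its mean over the 12 libraries, in log2 CPM, for each library (columns; genotypes separated by a line). WT replicate 4 is high across the non-oxidative rows and low in H6pd, and KO replicate 5 is low in G6pdx.

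Of 28 pairs of members, 16 had a positive Pearson r of log2 CPM across the 12 libraries after each genotype mean was removed. The 6 pairs within the non-oxidative arm were all positive (r from 0.563 to 0.817) and remained so without WT replicate 4 (0.268 to 0.727), though none passed by Pearson's r. Within the oxidative arm 2 of 6 pairs were positive (−0.364 to 0.426), and between the arms 8 of 16 (−0.617 to 0.915). 1 pair passed by Pearson's r after adjustment over the 28 pairs, and it joined the arms: Pgd and Tkt, with r = 0.915 (permutation p = 7e-05, adjusted p = 0.00196) and rho = 0.825 (permutation p = 0.00288, adjusted p = 0.0403). Their r was 0.848 without KO replicate 2 and WT replicate 4, which were farthest from the median of Pgd, and 0.909 among shallower and 0.88 among deeper libraries. Rpe and Tkt passed by rank alone (rho = 0.916, permutation p = 0.00023, adjusted p = 0.00644), with r = 0.817 (permutation p = 0.00669, adjusted p = 0.0937) that was 0.617 without WT replicates 3 and 4. Tkt and Taldo1, which act together, had r = 0.650 (permutation p = 0.0374, adjusted p = 0.224), which was 0.433 without WT replicate 4. Their r was 0.29 without KO replicate 2 and WT replicate 4, 0.937 among shallower and −0.115 among deeper libraries. The Tkt window and the first Pgd window both hold a GC box, as 35.66% of all windows do. In range, G6pdx varied most, 4.16-fold over the 12 libraries, followed by Rpia (3.76-fold) and Tkt (3.68-fold), and Pgls least (2.06-fold).

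The genes most like each member were those with the highest r of genotype-centred log2 CPM over the 12 libraries. They were picked from all genes tested and are a description. For G6pdx they were Kcnab2 (r = 0.886), a potassium channel subunit, Ctsg (0.884) and Parvb (0.881). For Pgd they were Fos (0.933), an immediate early transcription factor, Phlda2 (0.925) and Hn1 (0.923). For Tkt they were Gdf15 (0.963), a stress-induced cytokine, Ube2v2 (0.937) and Sac3d1 (0.923). Gdf15 was at 6.04 to 133 CPM and highest in WT replicate 4, as Tkt was. H6pd was most like Garem (0.952), Yod1 (0.938) and Cyp4f16 (0.894), and Taldo1 most like Mapre3 (0.935), Ormdl3 (0.915) and the glutathione transferase Mgst1 (0.907). The leading genes were 1810037I17Rik (0.964) for Pgls, Rap1a (0.952) for Rpe and Gm7446 (0.932) for Rpia.

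Per length, Taldo1 and H6pd had the highest levels and the pentose isomerases Rpe and Rpia the lowest. CPM per kilobase of exon (RPKM), averaged over 12 libraries, were 61.3 for Taldo1 and 60.9 for H6pd, then 33.8 for Tkt and 21.3 for Pgls, then 6.48 for G6pdx and 4.68 for Pgd, then 1.52 for Rpe and 1.45 for Rpia. The neighbours Taldo1 and H6pd kept this order in 5 of 12 libraries, G6pdx and Pgd in 7 and Rpe and Rpia in 6, so within those pairs the order was not stable. H6pd was above Tkt in 11 libraries, Tkt above Pgls in 9, and Pgls above G6pdx and Pgd above Rpe in all 12. With the longest transcript as the length, Tkt (77.1) lay above H6pd (67.2), Pgd (8.28) above G6pdx (7.53) and Rpia (2.13) above Rpe (1.74).

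Reads of some members may be shared with neighbours, since the counting rule is not given in the sources used here. G6pdx shares 418 exon bases (13.57% of its exons) with Ikbkg on the opposite strand, which was at 49.0 to 123 CPM, above G6pdx in every library. Rpe shares 558 bases (17.92%) with Kansl1l on the opposite strand (2.69 to 13.3 CPM). Pgls shares 776 bases (20.58%) with Fam129c on the same strand, which was at 0.0482 to 0.647 CPM. Of near-identical copies, the retrogene G6pd2 (93.2% identical over 2332 bases) had 0 counts in every library, which allows up to 0.0536 to 0.211 CPM by a floor of 3 counts, and Gm17823, a copy of Taldo1, had 74 reads in all against 48827.

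Genes that border the pathway, from hexose phosphate supply to ribose phosphate use, were counted next. Of 20 such neighbours, 17 were tested and none passed the adjusted threshold. At an unadjusted p under 0.05, 1 was higher and 4 were lower, against 7.25% and 7.44% of all genes. Negative were 14, against 46.3% of all genes, with a median log2 fold change of −0.21. Dera, which cleaves deoxyribose 5-phosphate, had −0.84 ± 0.22 (SE, edgeR adjusted p = 0.195), with KO at 26.1 to 45.7 CPM and WT at 32.5 to 79.4. Prpsap2, which binds phosphoribosyl pyrophosphate synthetase, was also among the lower ones (−0.47 ± 0.19). The higher one was Tigar (0.43 ± 0.18), a phosphatase known to direct glucose 6-phosphate into the pathway, at 8.62 to 12.9 CPM in KO and 4.92 to 9.90 in WT. Prpsap2 and Tigar were named after their values were seen. The transketolase-like genes had 1 (Tktl1) and 6 (Tktl2) reads over all libraries.

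Of 13 other genes that supply NADPH, 12 were tested and none passed. Without adjustment 1 was higher and 0 were lower, against 7.25% and 7.44% of all genes, and the median was −0.10. Mthfd2, a mitochondrial folate enzyme, had 0.995 ± 0.34 (SE, edgeR adjusted p = 0.246), with KO at 4.78 to 14.0 CPM and WT at 2.39 to 7.73. Aldh1l2 had 2.39 ± 1.15 and Aldh1l1 −0.88 ± 0.46, neither under an unadjusted p of 0.05 in edgeR. Of 16 NRF2 regulators and targets, all were tested and none was higher or lower without adjustment (median −0.063, 10 negative). Nfe2l2, which encodes NRF2, had −0.12 ± 0.21, its inhibitor Keap1 0.22 ± 0.15, Abcc4 0.74 ± 0.52 and Gpx2 −1.46 ± 1.03.

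Fatty acid synthesis is a main use of cytosolic NADPH. The 12 lipogenic targets of SREBP1c and ChREBP were all negative, against 46.3% of all genes. Without adjustment 4 were lower, against 7.44% of all genes (median −0.52 against 0.034 over all genes). Some marker lists of cell types had negative medians too, and others did not. Negative were 7 of 8 hepatocyte markers (median −0.39, 1 lower without adjustment), 8 of 8 endothelial markers (−0.88, 4 lower) and 8 of 8 stellate and fibroblast markers (−0.68, 0 lower). The B and plasma cell median was −0.12. Medians were positive for macrophage (0.071), cholangiocyte (0.20), erythroid (0.51), T and NK cell (0.63), proliferation (0.68) and neutrophil (3.20) markers. Sums were 131 to 562 CPM in KO and 351 to 550 in WT for the endothelial list, and 167 to 565 and 207 to 720 for the stellate list. The part of these cells in the enzyme and lipogenic values was not tested. Acly, which makes cytosolic acetyl-CoA, was at 95.5 to 216 CPM in KO and 269 to 369 in WT, without overlap, with −1.10 ± 0.23 (SE, edgeR adjusted p = 0.170). Thrsp had −2.79 ± 0.92 (edgeR adjusted p = 0.235) and Pnpla3 −1.34 ± 0.59 (edgeR adjusted p = 0.321). Both groups overlapped. Thrsp was at 3.46 to 51.4 CPM in KO and 26.7 to 460 in WT (median 55.4), with 460 in WT replicate 4. Pnpla3 was at 0.841 to 3.77 CPM in KO and 1.21 to 13.6 in WT (median 3.43). The last list held 5 genes of the endoplasmic reticulum (Hsd11b1, Por, Cyb5r3, G6pc and Slc37a4), not all of which use NADPH. These 5 genes had a median of −0.19, and 1 was lower without adjustment, against 7.44% of all genes. The lower one was Hsd11b1, the 11β-hydroxysteroid dehydrogenase that takes its NADPH from H6pd. It was at 101 to 238 CPM in KO and 290 to 454 in WT, without overlap (−1.40 ± 0.20, SE, edgeR adjusted p = 0.0876). Groups without overlap were found for 1.21% of all genes. Acly and Hsd11b1 were named for the smallest unadjusted p of their lists, which favours such genes. H6pd itself was at 0.031 in the same fit. G6pc had −0.64 ± 0.34 and Cyb5r3 0.27 ± 0.20.

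**Figure D5:**
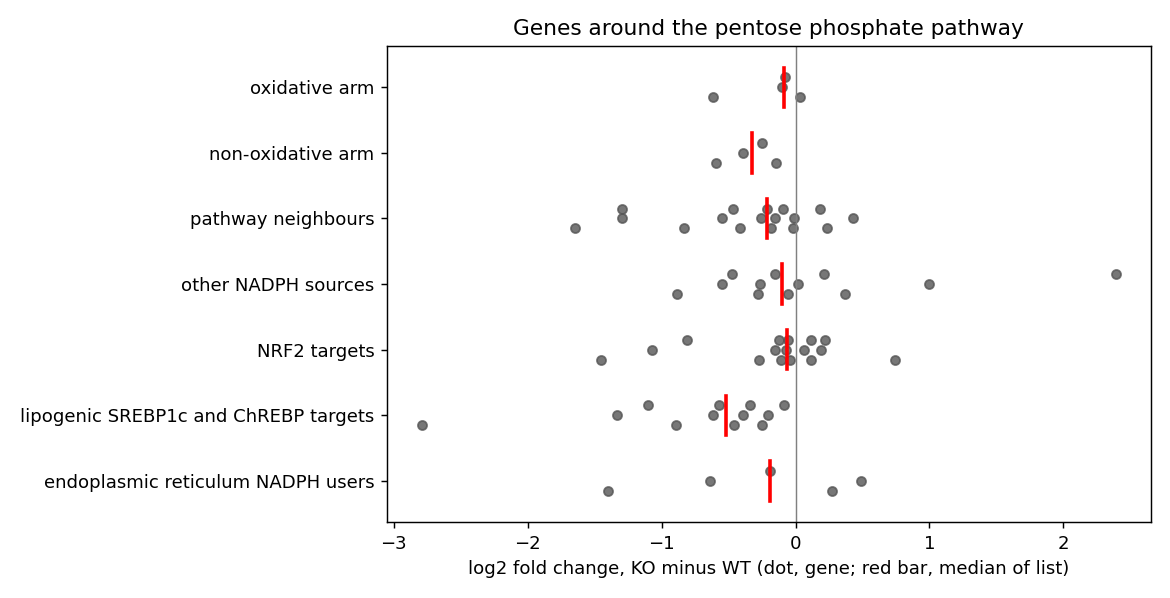
Log2 fold change, KO minus WT (x axis), of each tested gene (dot) in the 2 arms and 5 lists of related genes, with the list median as a red bar. The 12 lipogenic genes all lie below 0 (median −0.52), and the NRF2 genes lie on both sides (median −0.063). The list labelled endoplasmic reticulum NADPH users also holds genes of that compartment that do not use NADPH.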

How the data were processed

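Total RNA was extracted with Trizol, and samples with an RNA integrity number over 8.0 were used for libraries, per the labels' protocols. The authors deposited raw read counts per gene and library, not normalized. HISAT2 and the mm10 build are named in the submitters' processing notes. Which counter, strand setting and annotation made the table is not given in the sources used here. Groups follow the genotype label, and replicates were numbered in accession order. KO replicate 7 has a title that starts with KP, not KO, and its genotype label places it in KO.

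Of 46095 genes, 26342 had any count. filterByExpr (minimum count 10, minimum total 15) kept 14666, holding 99.89% of reads. The test was edgeR 4.0.16 (TMM factors 0.816 to 1.20, robust quasi-likelihood fit, Benjamini-Hochberg adjustment, R 4.3.3). SE was derived as log2 fold change divided by √F. CPM uses TMM-scaled totals, and log2 CPM a prior count of 2. RPKM uses union exon lengths of the GENCODE M21 annotation on GRCm38, the same assembly as mm10. Pairs of members were tested by 100000 permutations within genotype. Alternatives were DESeq2 1.42.0, limma 3.58.1 voom, other filters, scaling and covariates, and each library left out. On simulated counts for 14449 genes of this comparison, edgeR recovered 37 of 50 genes raised 4-fold and 10 of 50 raised 2-fold. Of the genes left unchanged there, edgeR called 3, DESeq2 39 and each limma-voom fit 3.

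The members and gene lists were chosen with earlier results of these data known. All members were named, with up to 3 genes of each list by smallest unadjusted p, G6pd2, Nfe2l2 and Keap1 always, and up to 3 genes most like each member. Some items that this rule names are not reported here.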

Additional observations from a re-analysis of the deposited data

How the results depend on the processing

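The count of genes past the adjusted threshold depended on the test. It was 0 in edgeR (2155 at an unadjusted p under 0.05), 1 with no filter, 1 with at least 1 CPM in 5 libraries, 3 with depth and 2 with title number range as a covariate, 5 with limma-voom, 2138 with limma-voom and sample weights (938 higher, 1200 lower) and 489 with DESeq2 (247 higher, 242 lower). Leaving out 1 library gave 0 to 65, with 65 without KO replicate 6. Leaving out KO replicates 3, 4 and 6, chosen after seeing the data, gave 6. The causes were not tested. Of the members, 1 (Rpia) was called by limma-voom with sample weights, and 0 to 0 when a library was left out.

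G6pdx, Pgls, Rpe, Rpia and Taldo1 kept a negative sign in all 22 alternatives. G6pdx lay between −1.17 (without the 3 neutrophil-rich libraries, chosen after seeing the data) and −0.49. The sign of 3 members near 0 turned. Pgd was 0.039 with voom and sample weights, 0.045 with title number range, −0.27 to 0.15 with 1 library left out (above 0 without KO replicate 6 or WT replicate 4) and 0.090 without the 3 neutrophil-rich libraries. H6pd was −0.11 to 0.22 with 1 library left out (below 0 without KO replicate 4, WT replicate 2 or WT replicate 4) and −0.13 without the 3 neutrophil-rich libraries. Tkt was 0.23 with voom and sample weights, 0.092 with title number range, −0.29 to 0.30 with 1 library left out (above 0 without WT replicate 4) and 0.016 without the 3 neutrophil-rich libraries. The balance of the arms ran from −0.14 to 0.24 when 1 library was left out, and was 0.34 with medians of members. No paired analysis was possible because the replicate numbers are accession order and the titles share no numbers across genotypes. On simulated counts edgeR recovered 10 of 50 genes raised and 14 of 50 lowered 2-fold. Those genes were picked at random and drawn independently of each other, so their recovery does not give the power for the members. All 8 members' fitted differences were smaller than 2-fold in the main fit.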
